A study of Mus musculus with 15 samples.

Results

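Cytosine methylation was described at 10 genes that write or read CpG methylation: Dnmt1, Uhrf1, Dnmt3a, Dnmt3b, Dnmt3l, Mbd1, Mbd2, Mbd3, Mbd4 and Zbtb38. The members were all CpG positions inside these genes or within 5 kb of them in the RefSeq annotation of GRCm38, a position being the cytosine of a CpG on 1 strand. The rule found 177 positions at 153 CpGs, of 455664 CpG positions on the autosomes and X. It uses gene location and no methylation value.

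The values come from reduced representation bisulfite sequencing (RRBS), which sequences short CpG-rich restriction fragments after bisulfite has turned unmethylated cytosines into uracil. The tissue was micro-dissected dentate gyrus, the part of the hippocampus that holds the granule neurons and produces new neurons in adult life. All 15 mice were female C57BL/6JRj, 7.5 months old, with no transgene or targeted allele in the labels. They formed 3 groups of 5: a standard group in ordinary cages for 6 months, an enriched group in an enriched environment for 6 months, and a withdrawal group with 3 months of enrichment and then 3 months of standard housing. The comparisons ask what enrichment changed and what was found 3 months after it ended. The labels list the mice as separate samples and name no batch, litter or cage.

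DNA methylation in mammals sits mostly on CpG dinucleotides. Dnmt1 copies it to the new strand after replication, with Uhrf1, which recognises half-methylated CpGs, while Dnmt3a and Dnmt3b add methyl groups to unmethylated DNA. Proteins with a methyl-CpG-binding domain or certain zinc fingers read the mark and recruit repressor complexes. CpG-rich gene starts are usually unmethylated in all tissues, and gene bodies are usually methylated. Methylation of these 10 genes was measured here, and neither their expression nor the activity of their proteins was.

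RRBS gave values at 17 positions of 11 CpGs of Dnmt1, just upstream of the listed start at 20952623 of chromosome 9 on the minus strand. Other listed starts of Dnmt1, at 20952979 and 20959888, lie farther upstream, so these positions are inside the gene and downstream of those starts. The sequence is shown because 17 of the 28 Dnmt1 positions, all of them low, fall in it, with the CpGs that have deposited values in capitals (RefSeq, GRCm38.p6, chr9:20952636-20952767, minus strand).
Dnmt1 start: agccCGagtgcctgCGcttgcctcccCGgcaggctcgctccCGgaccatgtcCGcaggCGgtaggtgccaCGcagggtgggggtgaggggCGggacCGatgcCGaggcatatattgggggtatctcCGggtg
A shorter stretch upstream of the Mbd4 start at 115853341 of chromosome 6 is shown because each of its 3 CpGs was listed at 0% in every mouse with a value (RefSeq, GRCm38.p6, chr6:115853484-115853513, minus strand, the same use of capitals).
Mbd4 start: aagggagcccacctcctcCGcCGaagCGcc
The RefSeq promoter table (250 bases before to 50 after each start) lists 17 starts for 8 of the genes, and these are the 2 windows that hold member positions. Among all 32851 windows, 20.6% hold a CpG position with values. RRBS libraries commonly use an enzyme that cuts at CCGG, and 11 of the 17 windows hold that motif (the same on both strands, no other motif searched) against 52.8% of all windows. The 17 windows have a median of 22 CG dinucleotides and all windows a median of 7. Of the 33 CG dinucleotides of the Dnmt1 window, 11 had values, and of the 25 in the Mbd4 window, 6 had values. Starts of Dnmt3a, Dnmt3l, Mbd3 and Zbtb38 had no position within 1 kb, so the methylation at these starts is not described.

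The number of member positions with a value differed between mice. It ran from 119 in standard mouse 1 to 168 in standard mouse 3, was 131 to 164 in the enriched mice and 153 to 166 in the withdrawal mice. Over all CpG positions the extremes were 297716 in standard mouse 1 and 443956 in withdrawal mouse 4. In all 15 mice 48 member positions had a value. The files give percentages without read numbers, so depth is unknown, and a value such as 100% or 0% may rest on few reads. Positions of 1 fragment share reads, so neighbouring positions are not independent. The tissue is a mixture of cells, so a partial level cannot be told apart from a mixture of methylated and unmethylated cell types. Marker genes of granule neurons, inhibitory neurons, oligodendrocytes, astrocytes, microglia and endothelium were read as gene means of methylation, which do not show expression. In all 19 of these marker genes tested, limma called 0 in any comparison, and Gad2, an enzyme of GABA synthesis, was the only one with an unadjusted p under 0.05. Its mean was 16.3% ± 1.68 (SD, n = 5) in standard mice, 15.4% ± 1.55 in enriched mice and 20.1% ± 2.06 in withdrawal mice. Of the 4 inhibitory neuron genes tested, Gad2 included, 2 were higher and 2 lower in withdrawal mice than in standard mice (median −0.743 points), and 2 were higher and 2 lower than in enriched mice (median −1.09 points). The part of cell makeup in the values below was not tested. The granule neuron mean lay between 31.0% and 41.1% in standard mice, between 30.4% and 36.9% in enriched mice and between 33.1% and 38.9% in withdrawal mice, and the groups overlapped.

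Most member positions were low. Of the 177 positions, 128 averaged under 20%, 18 between 20% and 80% and 31 above 80%. The share under 20% was 72.3%, against 52.4% of all CpG positions. All 60 member positions within 1 kb of a listed start of their gene averaged under 20%, as did 92.4% of the 137421 positions this close to a start of any gene. These 60 were in Mbd4 (25), Dnmt1 (17), Uhrf1 (12) and Dnmt3b (6). A methylated Dnmt1 cluster lay 1037 bases from another listed start, just beyond this limit, and its positions averaged 80.6% to 97.4%. Of the other 117 member positions 58.1% were under 20%. These include the unmethylated clusters of Mbd1 and Mbd2 and the 16 positions downstream of Uhrf1. In 54 positions the value was 0% in every mouse with a value. The intermediate positions were in Mbd2 (10), Dnmt3a (4), Mbd1 (3) and Uhrf1 (1).

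**Figure D1:**
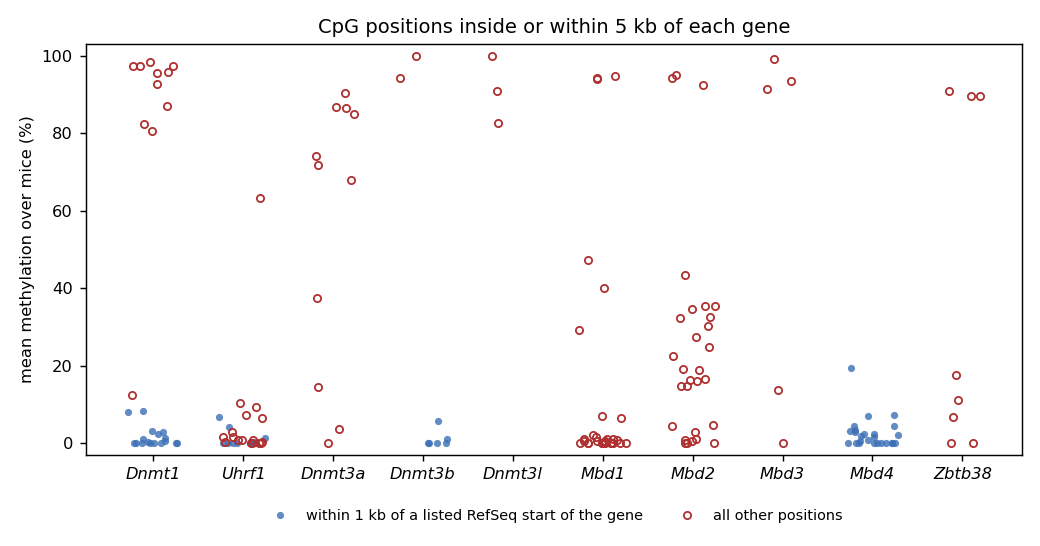
Mean methylation over the mice (y axis, percent) of each of the 177 CpG positions, by gene (x axis). Filled points lie within 1 kb of a listed RefSeq start of the gene and all 60 are under 20%. Mbd1 and Mbd2 have no listed start in the table used, so all their points are open.

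No member passed the test in any comparison, at single positions, genes, windows or clusters. Positions were tested with limma (a moderated linear model) on log2((percent + 5)/(100 − percent + 5)), called the log2 ratio below. A position had to have a value in at least 3 mice of each group and a range of at least 5 percentage points, which 115 members met and 62 did not. Called means a Benjamini-Hochberg adjusted p under 0.05 over all 350663 positions tested, and the share called in the whole table was 0% for each comparison. For enriched against standard, limma called 0 of the 115 members, with 7 at an unadjusted p under 0.05 (3 higher, 4 lower), which is 6.09% against a background of 4.67%. For withdrawal against standard it called 0, with 3 at that level (2 higher, 1 lower), or 2.61% against 4.3%. For withdrawal against enriched it called 0, with 4 (1 higher, 3 lower), or 3.48% against 4.18%. The F test over the 3 groups called 0, with 5 at that level, or 4.35% against 4.27%. The smallest adjusted p of a member in limma was 0.892, 0.911 and 0.922 for the 3 comparisons. The median absolute difference between group means over the members was 4.55, 4.45 and 4.0 points, and over all tested positions 5.19, 4.90 and 4.81. The values of a pair of groups did not overlap at 2 member positions, both for withdrawal against enriched (1.74% of members, 1.11% of all), and at 0 for the other comparisons.

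For averaged features, 4 genes had 3 or more positions with a value in all mice (Dnmt3a, Mbd1, Mbd2 and Mbd4) and were tested among 9259 genes, where limma called 0% for every comparison. With p below 0.05 before adjustment there were 0, 0 and 1 of the 4, against 5.89%, 5.08% and 4.6% of all genes. Of 7 member windows of 1 kb limma called 0, and 0, 0 and 1 had p below 0.05 before adjustment (backgrounds 5.64%, 4.74% and 4.32%, and 0% called). For Mbd1 and Mbd4 the window holds the same positions as the gene mean, so their gene and window tests are not separate measurements. Clusters, runs of at least 3 CpG positions with gaps of at most 300 bases averaged over the positions a mouse has, were added after the data were seen, so that genes without complete positions could be tested. Of 22 member clusters limma called 0, and 2, 1 and 0 had p below 0.05 before adjustment (backgrounds 5.48%, 4.68% and 4.57%, and 0% called). The mice of a group do not always contribute the same positions to a cluster. An alternative gene mean used all positions of a gene, each centred on its own mean, and limma called 0 of 16132 genes. Its smallest member p was at Mbd3 for enriched against standard (−13.3 points, limma p 0.0185, adjusted 0.837). In that comparison 955 of the 16132 genes had an unadjusted p under 0.05.

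**Figure D2:**
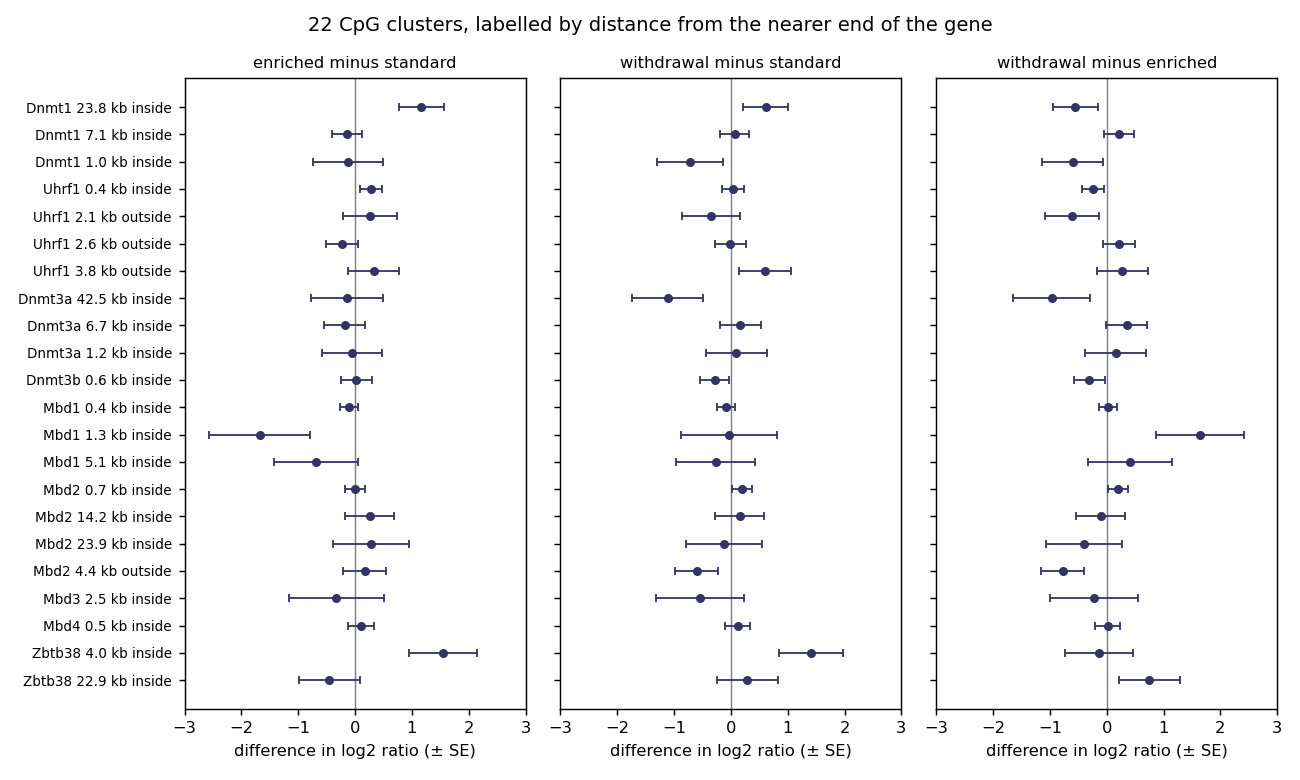
Difference in log2 ratio with its standard error (x axis) of the 22 member clusters for the 3 comparisons; each line is a cluster, labelled by gene and distance to the nearer gene end. The widest differences are at Mbd1 1.3 kb inside, with −1.68 for enriched minus standard and 1.64 for withdrawal minus enriched, and no cluster was called.

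Dnmt1, the maintenance methyltransferase, spans 20907206 to 20959888 of chromosome 9 and had 28 positions, 0 of them with a value in all mice. The cluster printed above averaged 1.84%, with 5.93, 1.99, 0.294, 1.82 and 0% in standard mice 1 to 5, 3.64, 0.267, 1.02, 1.26 and 0% in enriched mice, and 0.833, 0.905, 0.735, 2.73 and 6.11% in withdrawal mice. Every mouse was low and the groups overlapped. The highest single value in it was 61.1%, in withdrawal mouse 5 at 20952740, a position at 36.4% in enriched mouse 1 and at 0% in the other 10 mice with a value.
The Dnmt1 positions with values elsewhere inside the gene, all in short clusters, were methylated. Its inner cluster of 5 positions (20930974 to 20931188) was at 100, 94.8, 93.8, 94.2 and 84.4% in standard mice, at 100% in all 5 enriched mice, and at 91.7, 99.1, 100, 95.4 and 100% in withdrawal mice. Enriched mice sat at the top of a range that 1 standard and 2 withdrawal mice shared. The enriched minus standard difference was 6.57 points, or 1.16 ± 0.40 (SE) in the log2 ratio, with a limma p of 0.00941 and an adjusted p of 0.873. Without standard mouse 5, the lowest, it was 4.30 points (limma p 0.0321).
Within it, the position 20930979 (plus strand) had the smallest F test p of the gene. It was at 77.8, 100 and 76.9% in the 3 standard mice with a value and at 100% in 3 enriched and 5 withdrawal mice. The withdrawal minus standard difference was 15.1 points (log2 ratio 1.88 ± 0.64 SE, limma p 0.0102, adjusted 0.911, and 2.82 without standard mouse 3). The second methylated cluster, at 20958779 to 20958851, lies 1037 bases from the listed start at the upstream end, 20959888. It ranged from 70.0% to 97.5% over the 12 mice with a value, and the groups overlapped.

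Uhrf1, the partner of Dnmt1 at half-methylated CpGs, spans 56303337 to 56323486 of chromosome 17. It had 29 positions, of which 28 averaged under 20%. The 12 positions at its start (56303726 to 56303863) averaged 0.83%, with the highest mouse at 3.49%. Another 16 positions lie downstream of the gene, 12 of them inside the neighbouring gene Kdm4b, which encodes a histone demethylase, and these were also low. The position 56327342 in Kdm4b had the smallest F test p. It was at 0% in all 5 standard and 4 enriched mice with a value and at 13.2, 21.1, 0, 6.67 and 0% in withdrawal mice (difference from standard 8.18 points, log2 ratio 1.22 ± 0.48 SE, limma p 0.0212, adjusted 0.911).
The position 56319640 (plus strand) was picked out after its values were seen, as the only Uhrf1 position that was not low. Standard mice were at 28, 95.4, 100, 95.7 and 65.4%. Enriched mice were at 85.7, 84.6, 45.8, 43.1 and 79.3%. Withdrawal mice were at 44.0, 41.2, 40, 53.5 and 46.9%. Standard and enriched mice were spread widely and withdrawal mice lay close together, within the range of the standard group because of standard mouse 1. Withdrawal minus standard was −31.8 points (log2 ratio −2.42 ± 1.03 SE, limma p 0.0302, adjusted 0.911). Without standard mouse 2, 3 or 4 the limma p was above 0.05 (0.0735, 0.0993 and 0.0737), as it was without withdrawal mouse 2 (0.0501). Without standard mouse 1 the difference was −44.0 points (limma p 0.00256, adjusted 0.918). The SD was 30.6 points in standard mice, 21.4 in enriched mice and 5.39 in withdrawal mice (n = 5 each). Of 50214 positions with a mean of 20% to 80% and 5 withdrawal values, 2.88% had a withdrawal SD at most as large.

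Dnmt3a, the main de novo methyltransferase of mature neurons, spans 3801559 to 3914443 of chromosome 12. Of its 11 positions 8 had a value in all mice, the highest share of the 10 genes. Its gene mean was 75.4, 70.9, 80.2, 60.7 and 85.7% in standard mice, 82.9, 68.3, 65.4, 64.7 and 83.2% in enriched mice and 79.3, 78.1, 76.2, 75.9 and 77.5% in withdrawal mice. The groups overlapped, and the withdrawal mice lay inside the ranges of the others. Enriched minus standard was −1.67 points (log2 ratio −0.11 ± 0.30 SE, limma adjusted p 0.973), and withdrawal minus standard was 2.82 points (0.14 ± 0.30 SE, adjusted 0.983). The first was 0.014 without enriched mouse 3, 0.024 without enriched mouse 4 and 0.0898 without standard mouse 5, and the second was −0.0728 without standard mouse 4, so the signs rest on single mice.
A step in methylation was seen between 2 neighbouring CpGs of Dnmt3a, picked out after the values were seen. The position 3907695 was at 22.5, 31.0, 54.1, 12.0 and 46.3% in standard mice, 48.2, 53.1, 15.5, 28 and 44.3% in enriched mice and 43.9, 33.3, 51.4, 31.2 and 47.9% in withdrawal mice. At 3907703, only 8 bases away on the same strand, the values were 91.8, 93.1, 92.7, 83.5 and 82.1%, then 87.4, 97.9, 80.8, 85.2 and 98.4%, then 92.3, 97.0, 86.0, 86.3 and 100%. The second was the higher in all 15 mice, by 34.6 to 71.5 points with a mean of 52.8. The next CpGs, at 3907714 and 3907719, averaged 86.6% and 86.7%. Of 20388 same-strand neighbouring pairs at most 10 bases apart with values in all mice, 50 (0.245%) had a mean difference as large, and in 112 (0.549%) the values of the CpGs did not overlap between mice. A non-CpG cytosine beside them, at 3907706, averaged 5.07%.

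**Figure D3:**
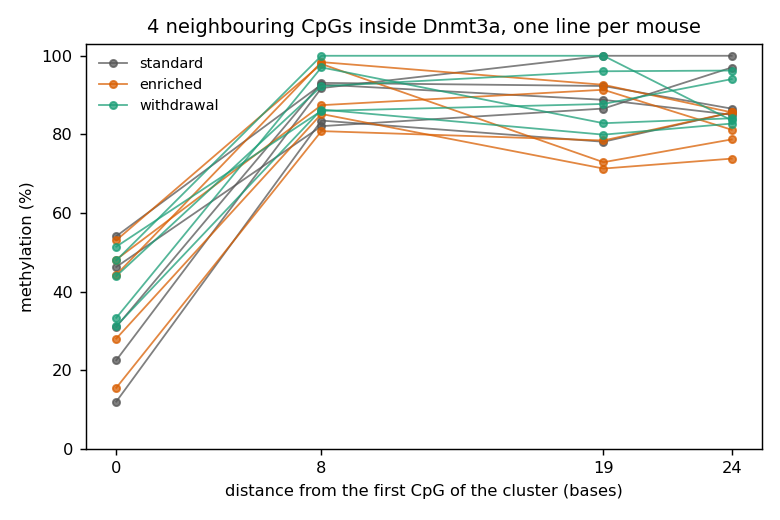
Methylation (y axis, percent) of 4 CpGs of Dnmt3a against their distance from the first (x axis, bases), with 1 line per mouse coloured by housing group. Every line climbs between the first CpG and the second, 8 bases on, and the colours are mixed at each CpG.

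The other Dnmt3a positions showed 2 levels. A second methylated cluster, at 3913062 to 3913268, ranged from 56.6% to 93.4% over the mice, and its 4 positions averaged 67.8% to 85%. A cluster 42.5 kb inside the gene (3871854 to 3871919) averaged 6.06%. There the position 3871919 was at 14.8, 26.9 and 12.1% in 3 enriched mice and at 8.33, 0 and 0% in 3 withdrawal mice, so that these groups did not overlap. Standard mice were at 0, 28.6, 55.0 and 0% and covered both (withdrawal minus enriched −15.2 points, log2 ratio −1.91 ± 1.22 SE, limma adjusted p 0.922). The position with the smallest F test p, 3871866, was above 0% only in standard mice 4 and 5, at 30.4% and 5.56%.

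Dnmt3b, the other de novo enzyme, which acts mainly in the early embryo, spans 153649411 to 153687730 of chromosome 2. Its 6 start positions averaged 0.899%. They were above 0% in standard mouse 5 at 7.58% and in enriched mice 2 and 4 at 2.98% and 2.03%. At 153650163, its position with the smallest F test p, enriched mouse 4 was at 12.2% and the other mice with a value were at 0%. In its body 153662829 averaged 94.2% and 153662930 was at 100% in all 13 mice with a value.
Dnmt3l, a cofactor without catalytic activity that works with Dnmt3a in germ cells, spans 78042287 to 78063622 of chromosome 10 and had 3 positions. These averaged 82.6%, 90.8% and 100%. At 78057397 the values were 100, 88.9, 75.8 and 100% in 4 standard mice, 57.1, 72.2, 100 and 100% in 4 enriched mice and 89.3, 100, 100, 97.4 and 100% in withdrawal mice. The groups overlapped (withdrawal minus enriched 1.30 in the log2 ratio, limma adjusted p 0.922, and 0.56 without enriched mouse 1).

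Mbd1, a reader that binds methylated CpGs through its methyl-CpG-binding domain, spans 74267605 to 74282737 of chromosome 18 and had 31 positions. Its cluster of 25 positions (74268015 to 74268574) averaged 1.07%, and no mouse exceeded 2.71%. Its first position, 74268015, had the smallest F test p of the gene. It was at 0, 12.5, 10.3, 21.1 and 16.7% in standard mice, 0, 0, 6.06, 0 and 0% in enriched mice and 5.71, 7.69, 0, 3.03 and 15% in withdrawal mice. Of the standard mice 4 lay above every enriched mouse and 1 was at 0%. Enriched minus standard was −10.9 points (log2 ratio −1.52 ± 0.58 SE, limma p 0.0174, adjusted 0.892).
Beside this cluster, 3 positions at 74268951 to 74268986 were at intermediate levels. Standard mice 2, 3 and 5 were at 32.0, 43.0 and 62.2%. Enriched mice 1, 2, 3 and 5 were at 5, 32.7, 42.0 and 7.60%. Withdrawal mice were at 69.7, 66.2, 18.7, 36.4 and 36.7%. The ranges overlapped (withdrawal minus enriched 23.7 points, log2 ratio 1.64 ± 0.78 SE, limma p 0.0544, and enriched minus standard −23.9 points, −1.68 ± 0.89 SE, limma p 0.0799). Without standard mouse 5 the latter was −15.7 points (limma p 0.242). A methylated cluster 5.1 kb inside the gene averaged 94.3%. The gene mean of Mbd1 over 14 positions was 1.8% ± 0.896 (SD, n = 5) in standard mice, 1.54% ± 1.93 in enriched mice and 1.36% ± 0.488 in withdrawal mice.

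Mbd2, which recruits the NuRD repressor complex to methylated DNA, spans 70568225 to 70629134 of chromosome 18. It had 29 positions, 15 of them with a value in all mice, and 10 of the 18 intermediate member positions. Its gene mean was 36.7, 40.5, 36.5, 32.6 and 39.9% in standard mice, 45.2, 42.1, 47.9, 34.1 and 41.8% in enriched mice and 33.3, 42.9, 33.8, 34.3 and 37.4% in withdrawal mice. Of the enriched mice 4 lay above all standard mice and 1 was at 34.1%. Withdrawal minus enriched was −5.88 points (log2 ratio −0.32 ± 0.15 SE, limma p 0.0449, adjusted 0.990), and enriched minus standard was 4.97 points (0.27 ± 0.15 SE, limma p 0.0862, adjusted 0.862).
The cluster 671 bases inside the lower-numbered end of Mbd2 (70568896 to 70569211, 9 positions) averaged 1.5%. The first inner cluster (70582420 to 70582544, 10 positions) was at 20.8, 29.97, 28.9, 21.4 and 37.7% in standard mice, 35.6, 43.0, 41.4, 20.2 and 21.8% in enriched mice and 27.2, 38.9, 29.0, 22.1 and 33.3% in withdrawal mice. All mice were at intermediate levels. The second inner cluster (70592173 to 70592273, 7 positions) was at 29.9, 19.7, 9.60, 25.5 and 2.90%, then 19.2, 1.5, 15.8, 21.8 and 55.2%, then 21.5, 18.5, 7.48, 17.5 and 8.39%. Enriched mouse 5 was the highest and enriched mouse 2 the lowest, so the enriched group spanned all others. On its minus strand, 70592239 averaged 10.8% in standard mice, 31.9% in enriched mice and 5.85% in withdrawal mice (withdrawal minus enriched log2 ratio −2.22 ± 0.90 SE, limma p 0.0239, adjusted 0.922). The plus-strand cytosine of the same CpG averaged 23.2, 23.1 and 21.2%. In withdrawal mouse 1 the strands of this CpG were at 39.1% and 0%.
In the 3 member CpGs read on both strands with a mean of 10% to 40%, all in Mbd2, the strands of a mouse differed by a median of 13.6 points over 40 pairs. Over all 3579 such CpGs of the table the median was 15.4 points.

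**Figure D4:**
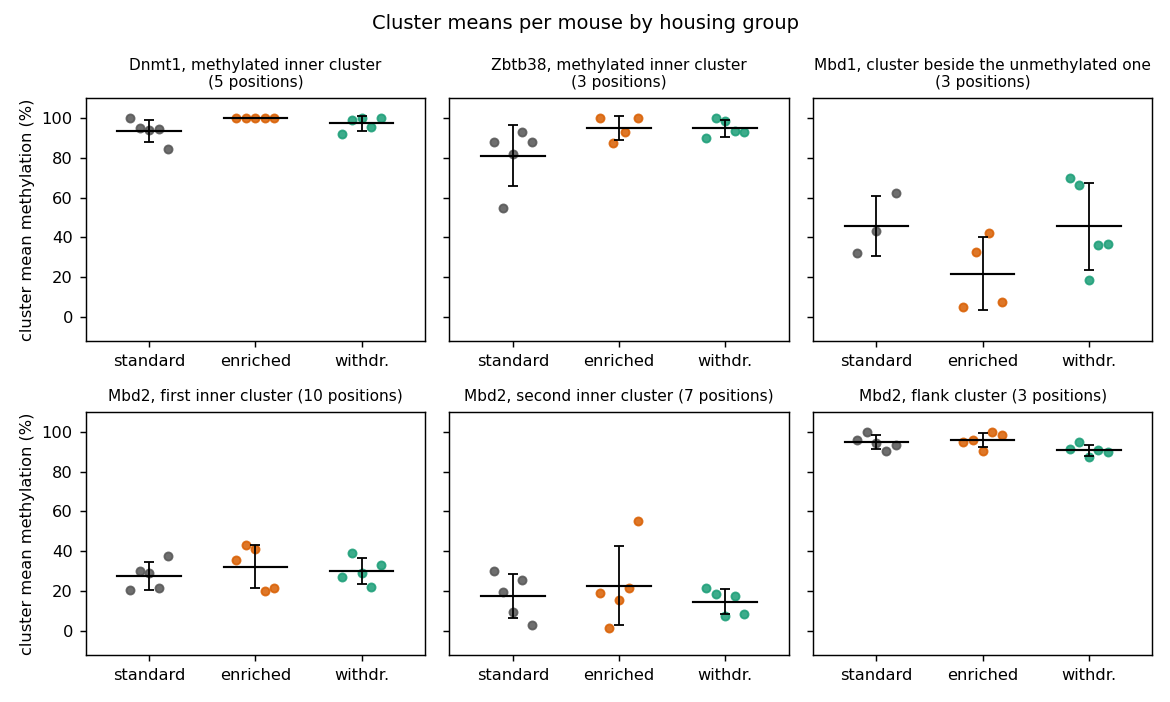
Cluster means (y axis, percent) of each mouse by housing group (x axis, withdr. for withdrawal), with the group mean as a line and the SD as a bar. The Dnmt1 panel has all 5 enriched mice at 100%, the Mbd2 inner clusters lie between 1.5% and 55.2%, and the groups overlap in each panel.

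The member position with the smallest p lies 4.4 kb outside Mbd2, at 70633531 on the minus strand. Standard mice were at 98.2, 100, 90.6, 83.6 and 88.2%. Enriched mice were at 98.5, 100, 100, 100 and 100%. Withdrawal mice were at 92.0, 88.1, 89.5, 75 and 80.8%. Every enriched mouse was above every withdrawal mouse, and the standard mice overlapped both groups. Withdrawal minus enriched was −14.6 points (log2 ratio −2.07 ± 0.55 SE, limma p 0.00134, adjusted 0.922). The next positions of the fragment, 70633555 and 70633558, averaged 94.3% and 94.9%, and withdrawal mice reached 98.1% and 100% there, so enriched and withdrawal mice overlapped. The 1 kb window with these 3 positions (70633001 to 70634000) was at 95.9% ± 3.59 (SD, n = 5) in enriched and 90.8% ± 2.77 in withdrawal mice (−5.05 points, limma p 0.0395, adjusted 1.00).

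Mbd3, the NuRD subunit related to Mbd2 that binds methylated CpGs poorly in mammals, spans 80392539 to 80399531 of chromosome 10. All 5 of its positions also lie in the predicted gene Gm30823. Its inner cluster (80395005 to 80395054, 3 positions) averaged 94.7%, from 82.1% to 100% over the 10 mice with a value. The position 80388304, 4.2 kb outside the gene, was at 60.0, 11.1, 0 and 54.5% in 4 standard mice, at 0% in 4 enriched mice and at 33.3, 9.09, 8.33, 0 and 0% in withdrawal mice. Standard mouse 4 was at 0% like the enriched mice. Enriched minus standard was −31.4 points (log2 ratio −2.85 ± 1.02 SE, limma p 0.0124, adjusted 0.892). Its neighbour 80388244 was at 0% in all 13 mice with a value.

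Mbd4, a DNA repair enzyme that removes thymine from mismatches at CpGs, spans 115840697 to 115853400 of chromosome 6. All 25 of its positions lie within 1 kb of its start and averaged under 20%, 8 of them upstream in the neighbouring gene Ift122. The 17 positions inside the gene averaged 2.04%, with every mouse between 0% and 4.42%. The position upstream with the highest mean, 115854099, was at 42.9, 0, 0 and 28.1% in 4 standard mice, 0, 26.9 and 70.6% in 3 enriched mice and 0, 0, 0, 51.1 and 13.0% in withdrawal mice. High and zero values occurred in each group. At 115852681, with the smallest F test p of the gene, enriched mice 2 and 3 were at 15% and 17.7% and all 12 other mice with a value at 0% (enriched minus standard 8.16 points, log2 ratio 1.17 ± 0.49 SE, limma p 0.0285, adjusted 0.892, and 0.74 without enriched mouse 3). The gene mean over 9 positions was 1.32% ± 0.780 (SD, n = 5) in standard mice, 0.978% ± 1.45 in enriched mice and 2.56% ± 2.22 in withdrawal mice.

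Zbtb38, a zinc-finger repressor that binds methylated CpGs, spans 96682767 to 96731675 of chromosome 9 and had 8 positions. Its methylated cluster (96686759 to 96686796, 3 positions) was at 88.1, 54.6, 81.7, 92.9 and 87.8% in standard mice, at 100, 87.6, 93.0 and 100% in 4 enriched mice and at 89.7, 100, 98.5, 93.5 and 92.8% in withdrawal mice. Standard mouse 2 was far below all others and the remaining mice overlapped. Enriched minus standard was 14.1 points (log2 ratio 1.55 ± 0.59 SE, limma p 0.0189, adjusted 0.895), and withdrawal minus standard was 13.9 points (1.41 ± 0.56 SE, limma p 0.0224, adjusted 0.996). Without standard mouse 2 they were 7.51 and 7.24 points (limma p 0.0540 and 0.0722). These comparisons share the standard mice.
A low cluster 22.9 kb inside the gene (96705707 to 96705811) averaged 5.0%. Its position 96705811 was at 30.8, 0, 23.5, 0 and 22.7% in standard mice, at 0% in all 5 enriched mice and at 0, 0 and 11.8% in 3 withdrawal mice. The group ranges met at 0% (enriched minus standard −15.4 points, log2 ratio −1.81 ± 0.69 SE, limma p 0.0178, adjusted 0.892).

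**Figure D5:**
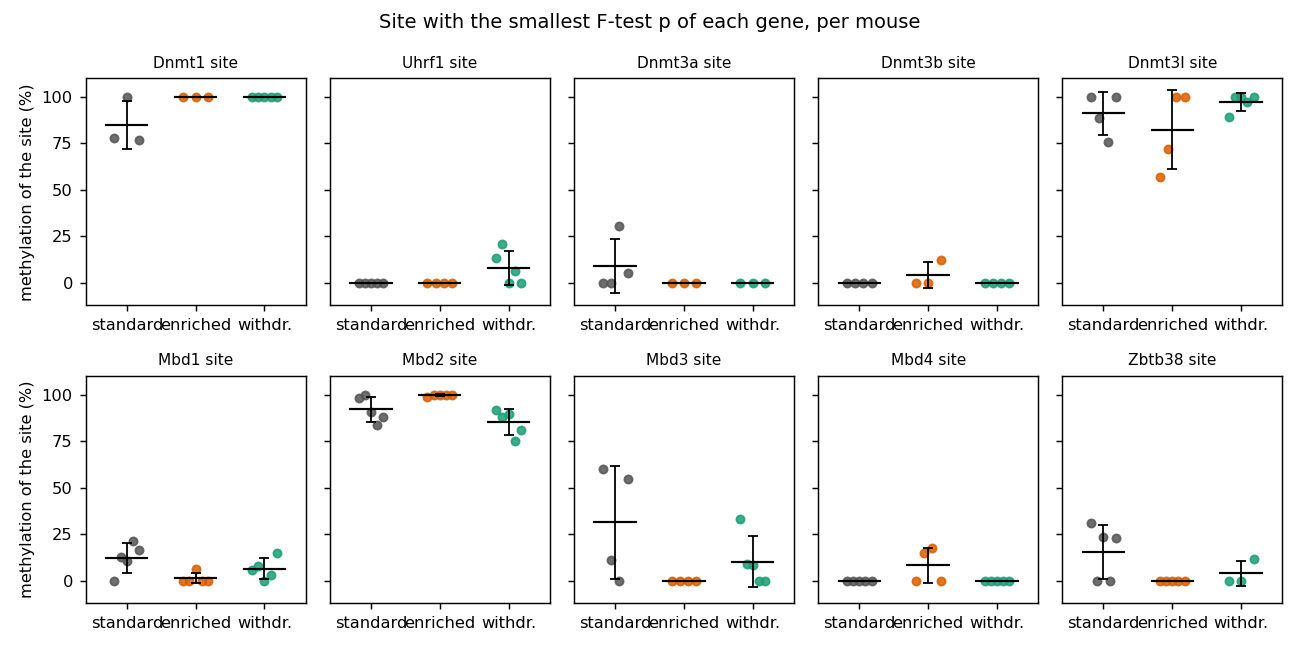
Methylation (y axis, percent) in each mouse of the position with the smallest F test p of each of the 10 genes, by housing group (x axis, withdr. for withdrawal), with the mean as a line and the SD as a bar. The Mbd2 position is the only one of the 10 where 2 groups, enriched and withdrawal, do not overlap.

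Partners of these genes were read from a list of 19: other methyl-CpG binders, maintenance factors and NuRD subunits. Of these 12 had enough positions, and limma called 0 for every comparison. For enriched against standard 2 were higher at an unadjusted p under 0.05 and 0 lower, for withdrawal against standard 1 was higher and 0 lower, and for withdrawal against enriched 0 were higher and 1 lower. The shares of all genes at that level were 5.89%, 5.08% and 4.6%, against which 1 or 2 of 12 genes is too few to read. The median difference of the 12 was 0.174, −0.194 and 0.0561 points, and over all 9265 genes with a mean 0.075, 0.312 and 0.228.
Dppa3, which keeps Uhrf1 off chromatin in oocytes, had the widest difference of the list in both comparisons with the enriched group. Its gene mean was 46.6, 37.2, 41.1, 41.1 and 36.0% in standard mice, 47.6, 54.8, 54.3, 51.6 and 62.3% in enriched mice and 39.2, 43.3, 41.2, 52.1 and 29.3% in withdrawal mice. Every enriched mouse was above every standard mouse, and withdrawal mouse 4 lay among the enriched. The share of all genes where groups separate in this way was not counted. Enriched minus standard was 13.7 points (limma p 0.00254, adjusted 0.649), and withdrawal minus enriched was −13.1 points (limma p 0.0033, adjusted 0.785). Uhrf2, a relative of Uhrf1, was at 26.1% ± 1.61 in standard and 31.2% ± 4.62 in enriched mice (SD, n = 5, limma p 0.0323, adjusted 0.829). Usp7, a deubiquitinase that binds Dnmt1 and Uhrf1, was at 68.6% ± 2.14 in standard and 72.6% ± 2.07 in withdrawal mice (limma p 0.0475, adjusted 0.971).
Mbd2 had the most complete positions of the members. The genes whose mean followed it most closely over the 15 mice, of 9258 compared, were Atp5md (Pearson r 0.774), Pdcd11 (0.774) and 0610009B22Rik (0.773). Atp5md and Pdcd11 had the same r, 0.7742, and genes within reach of the same positions were counted separately. This ranking is a description, and the means share libraries and depth.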

How the data were processed

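Methylation was measured by RRBS in the dentate gyrus of 15 mice. The authors deposited 1 table of percentages: the percent methylation of each cytosine on each strand, a column a mouse. The submitters' processing notes name Trim Galore 0.4.0, cutadapt 1.8.1, Bismark 0.16.1, methylKit 1.5.2 and the build mm10. Read counts, any coverage minimum and the filters are not given in the sources used here. All 2918114 positions have values in 3 or more mice per group. The CpG positions are the first run through the chromosomes. All 40750 of them that fall in RefSeq promoter sequences of GRCm38.p6 sit on a CG. Positions on Y and the mitochondrial genome were left out. Exons, introns and UTRs were not used here.

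The members and gene lists were chosen with earlier results of these data known. Groups came from the housing labels. limma 3.58.1 (R 4.3.3) fitted the 3 group means to log2((percent + 5)/(100 − percent + 5)) with a variance trend, two-sided, over all positions, genes (at least 3 complete positions within 5 kb), 1 kb windows and clusters, with Benjamini-Hochberg adjustment over each kind. Missing values were left missing. The p-values set each difference of group means against the moderated spread between these mice. That spread also holds read sampling of unknown depth, and the labels do not say whether cages were shared. Named positions had the smallest F test p of their gene or an unadjusted p under 0.01. Other positions described did not come from this rule and were picked out with their values known. Windows and list genes were named at an unadjusted p under 0.05. Lists were the 19 methylation partners and markers of granule neurons, inhibitory neurons, oligodendrocytes, astrocytes, microglia and endothelium. The fit was run on simulated data in which the changed rows were shifted by many times their SD. That run does not show whether smaller differences would be found. Alternatives changed the offset, scale, filters, strands, flank, window, replicate block and the mice included. Tables were made with pandas 2.3.3 and figures with matplotlib 3.10.9.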

Additional observations from a re-analysis of the deposited data

Results flagged for a closer look

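A mouse was set apart where its gap to the nearest mouse of its group exceeded the critical value of Dixon's test. Of 83 groups of 4 or 5 values examined at the named positions, gene means and clusters, 10 held such a mouse, where chance gives about 1 in 20 groups. Many of these groups sit at 0% or 100%, where 1 differing value is enough.

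At the Dnmt3l position 78057397 withdrawal mouse 1 was at 89.3%, with the nearest at 97.4%. At the Mbd1 position 74268015 enriched mouse 3 was at 6.06% and the other enriched mice at 0%. At the Mbd2 position 70633531 enriched mouse 1 was at 98.5% and the others at 100%. At the Mbd3 position 80388304 withdrawal mouse 1 was at 33.3%, with the nearest at 9.09%. In the Dnmt3b cluster at 153650032 standard mouse 5 was at 7.58% and the others at 0%. In the Dnmt3a cluster at 3907695 standard mouse 4 was at 64.8%, with the nearest at 75.8%. In the Uhrf1 cluster at 56303726 standard mouse 2 was at 1.89% and the others at 0%. In the Uhrf1 cluster at 56327245 standard mouse 4 was at 7.86%, with the nearest at 3.11%. In the methylated Mbd1 cluster at 74272702 standard mouse 2 was at 81.8% and the others at 100%, and withdrawal mouse 3 was at 78.2%, with the nearest at 94.9%.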

How the results depend on the processing

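Calls did not depend on the processing: all 274 alternatives of the counts gave 0 called members, with smallest adjusted p-values of 0.385 for positions, 0.796 for genes, 0.859 for windows and 0.693 for clusters. Members at an unadjusted p under 0.05 ranged over the alternatives from 3 to 7 positions for enriched against standard, 1 to 5 for withdrawal against standard and 2 to 4 for withdrawal against enriched. Same-numbered mice of different groups had correlations within the range of other pairs (−0.0179 to 0.0192 over 113832 positions, other pairs −0.0239 to 0.0275). Of the 15 mice 3 were closest to their own number. All these correlations were weak and depth is unknown, so they cannot tell whether the mice were paired. With the replicate block limma called 0 members, 6, 3 and 4 had p below 0.05 before adjustment, and the smallest adjusted p was 0.858, 0.869 and 0.878.

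Of 475 alternatives of 22 single differences 463 kept their direction and 12 changed it, 7 of them with a mouse left out; the cause was not tested. Over those leave-one-out fits the log2 ratio of Dnmt3a ran from −0.33 to 0.0898 for enriched against standard and from −0.0728 to 0.34 for withdrawal against standard, and that of Mbd1 for withdrawal against enriched ran from −0.10 to 0.17 (positive without enriched mouse 3, enriched mouse 4 or withdrawal mouse 2). That Mbd1 difference, −0.0043, was 0.14 with an offset of 1 and 0.24 with all positions of the gene used, each centred on its own mean. With that centring Mbd4 was 0.066, −0.062 and −0.13 for the 3 comparisons, against −0.11, 0.24 and 0.35. Unknown depth, 5 mice a group and missing values limit all of these. No coverage minimum could be varied.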

Other observations

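Non-CpG cytosines of the same genes were low. The 823 non-CpG positions inside or within 5 kb of the 10 genes averaged 0.596%, and those of the whole table averaged 0.821%. A mean above 5% was found at 15 of them (1.82%, against 2.66% of the whole table): 4 in Dnmt3a, 3 in Dnmt3l, 3 in Mbd2, 2 in Dnmt1, 2 in Dnmt3b and 1 in Uhrf1. Mbd1, Mbd3, Mbd4 and Zbtb38 had 0. The highest was in Dnmt3l at 78039364, with a mean of 17.2% over the mice with a value. Non-CpG values also include cytosines that bisulfite failed to convert.

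Among the 18 intermediate member positions the median SD within a group was 16.9 points in standard mice, 19.9 in enriched mice and 11.0 in withdrawal mice. Over all 78466 tested positions with a mean of 20% to 80% the medians were 21.6, 21.3 and 18.8 points, so the withdrawal group had the smallest median SD in both sets. This is a description, and the withdrawal mice also had the most member positions with a value on average.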
